A study of Homo sapiens with 8 samples.

Results

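The genes described here encode the nuclear subunits of the oxidative phosphorylation machinery, the respiratory complexes I to IV and the ATP synthase (complex V) of the inner mitochondrial membrane. They were chosen by symbol, as protein-coding nuclear genes whose names start with NDUFA (NDUFAF excepted), NDUFB, NDUFC, NDUFS, NDUFV, UQCR, COX4 to COX8 or ATP5, together with SDHA to SDHD. This gave 88 of 20039 protein-coding genes in the RefSeq table, with 38 in complex I, 4 in complex II, 9 in complex III, 17 in complex IV and 20 in complex V. Their bounds held 44 of 29084 m6A peaks in wild-type cells and 23 of 23937 peaks in METTL3-knockout cells. No peak counted for 2 of the genes. The complex IV subunit long called NDUFA4 is listed as COXFA4 and falls outside the rule. It had 0 peaks in either list.

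The peaks come from chromosome-associated RNA of HEK293T, a line long grown from human embryonic kidney, either parental (wild type, WT) or METTL3-/- (knockout). After removal of DNA and ribosomal RNA, RNA carrying N6-methyladenosine was pulled down with an EpiMark kit (IP), and strand-specific sequencing was done on it and on the input. There are 8 samples, 2 replicates each of IP and input per genotype. The labels name no further treatment and do not say how many knockout clones were used. Each genotype has 1 deposited peak list with 1 value per peak, so no value below has a spread between replicates and every difference lacks a replicate check. Peak lists give no expression levels, so the cell type was not checked against markers, and fewer peaks on an RNA cannot be told apart from less of that RNA. METTL3 itself held 2 wild-type and 0 knockout peaks.

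METTL3 is the catalytic subunit of the nuclear complex that methylates adenosines of RNA while it is being made. Oxidative phosphorylation passes electrons from complexes I and II through complex III to complex IV, and the proton gradient so built drives the ATP synthase. Most subunits are encoded in the nucleus, are needed in nearly every cell and are imported into the mitochondrion, while a small core is made from mitochondrial DNA. Their genes are mostly short. The median length was 9589 bp, against 24119 bp for all protein-coding genes.

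Of the 88 genes, 30 carried a wild-type peak (34.1%, 95% Clopper-Pearson interval 24.3 to 45), beside 39.6% of all protein-coding genes. A knockout peak was found in 15 of them (17%, 9.87 to 26.6), beside 34.9% of all protein-coding genes. Intervals here cover counting error only. Both lists held peaks in 11 genes, the wild-type list alone in 19 and the knockout list alone in 4. The remaining 54 genes had no peak. Genes with a wild-type peak thus lacked a knockout peak in 63.3% (19 of 30, 43.9 to 80.1), beside 32.8% of all protein-coding genes. In the other direction, 4 of 15 genes with a knockout peak had no wild-type peak (26.7%, 7.79 to 55.1), beside 23.6%. The background lay inside the interval for genes with a wild-type peak and for knockout peaks alone, and outside it for genes with a knockout peak and for wild-type peaks alone. That background holds genes of every length, while the genes described here are mostly short, and it was not matched for length. Whether it would lie outside at matched length was not tested, and shares by length class are given below.

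**Figure D1:**
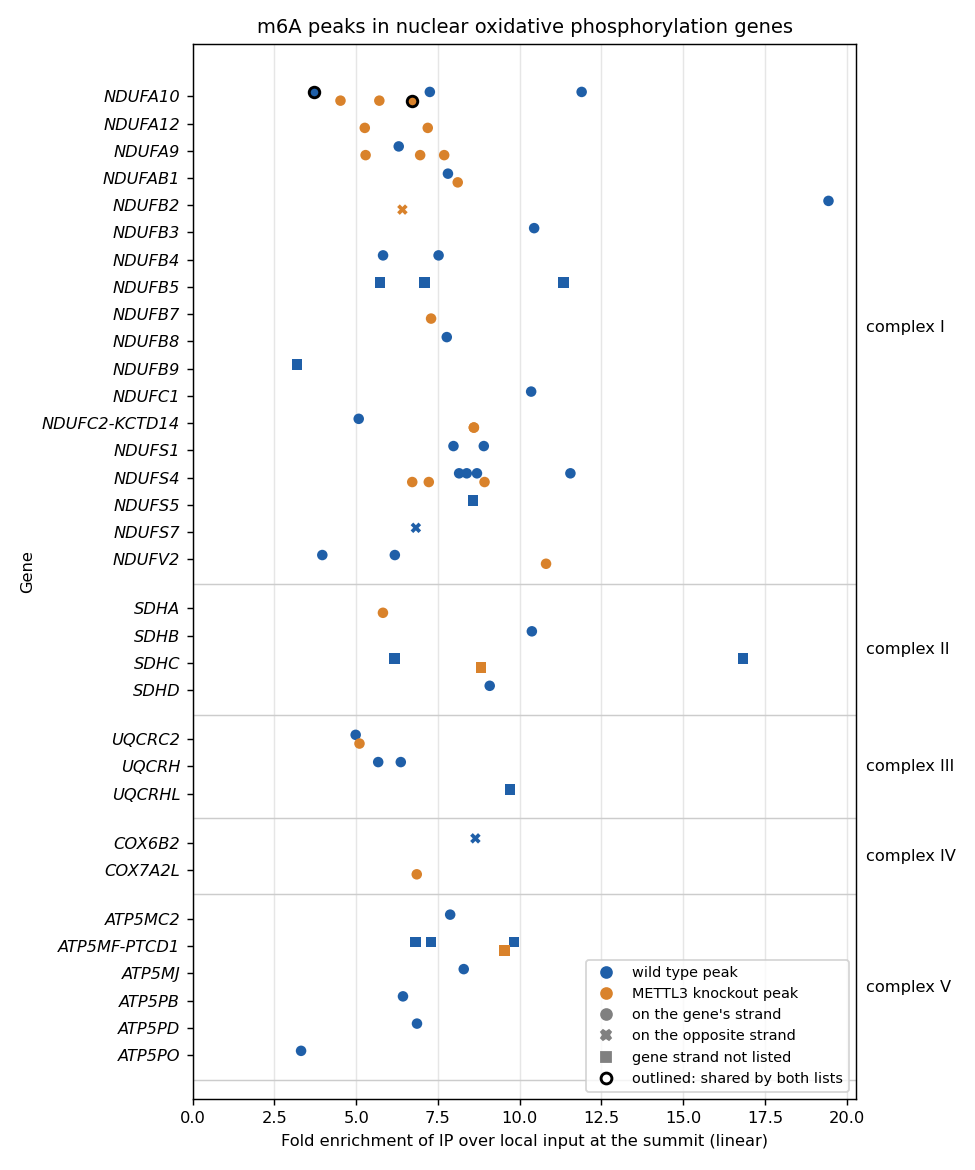
Fold enrichment at the summit (IP divided by local input, linear axis) of the peaks in the genes reported here, grouped by complex, with wild-type peaks in blue and METTL3-knockout peaks in orange. Wild-type peaks reach 19.4 (NDUFB2) and 16.8 (SDHC), the highest knockout peak is 10.8 (NDUFV2), and complex IV has 1 peak of each kind.

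The wild-type list showed about the same fold enrichment in these genes as elsewhere. The fold is the authors' own and divides the scaled IP pileup by the local input, each plus 1. Its median was 7.64 (quartiles 6.18 and 8.95) over the 44 wild-type peaks, against 7.26 over the 22656 wild-type peaks in all protein-coding genes. The median was 6.96 over the 23 knockout peaks and 7.06 over 18213. The scale of the fold differs between the lists, so folds are ranked within a list. A typical peak was thinly covered. The summits had a median of 23 IP reads in wild type (range 11 to 72) and 23 in the knockout (lowest 15). All protein-coding genes gave medians of 26 and 32. In the fold, each IP read weighed 0.607 (plus strand) or 0.572 (minus) in wild type and 0.479 or 0.438 in the knockout, so reads are not on one scale either.

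**Figure D2:**
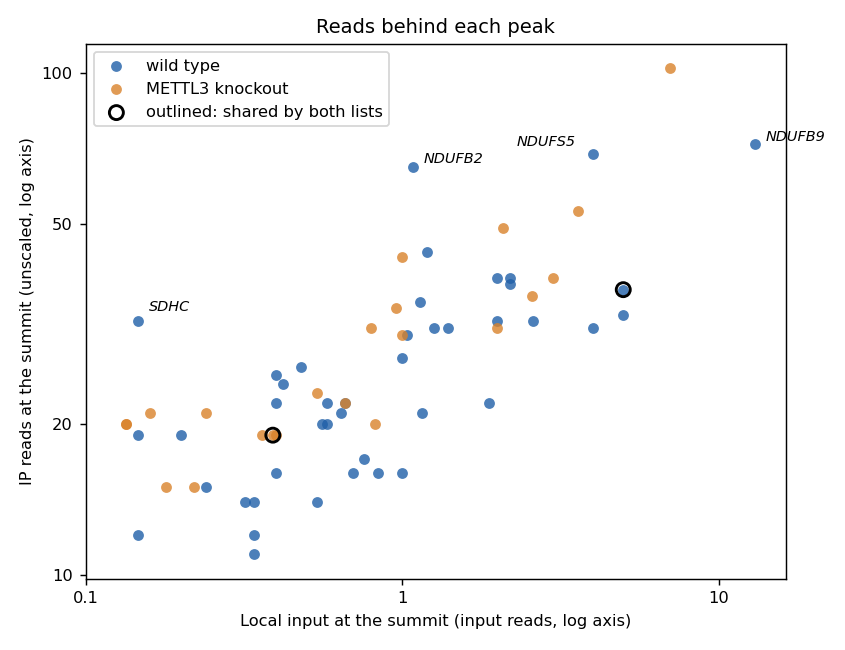
IP reads against local input at the summit, both on log axes, for the wild-type (blue) and knockout (orange) peaks of the oxidative phosphorylation genes reported here, with the shared NDUFA10 pair outlined. Most points lie below 50 IP reads, and NDUFB2 stands above others of like input with 65 reads.

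Peaks at the same place in both lists were rare. Sharing here means any overlap, from 1 bp up, with a same-strand peak of the opposite genotype. Of the wild-type peaks, 42 of 44 had no knockout partner (95.5%, 84.5 to 99.4), beside 78.7% of wild-type peaks in all protein-coding genes. Of the knockout peaks, 21 of 23 had no wild-type partner (91.3%, 72.0 to 98.9), beside 73.5%, which lies inside that interval. Sharing in these lists goes with read support, so it was also counted at like support. At 16 to 50 IP reads, 1 of 33 wild-type peaks of these genes was shared (3.03%), and 16.8% of those in all protein-coding genes. Above 50 reads it was 1 of 4, and 51.6%. Up to 15 reads it was 0 of 7, which allows up to 3 of 7 by counting alone, and 5.27%.

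A site where both lists met was in NDUFA10. NDUFA10, an accessory subunit of complex I, spans 132901 bp on the minus strand of chromosome 2. It held 3 wild-type and 3 knockout peaks, all on the gene's strand. The shared pair was chr2:239929796-239930258 in wild type, with a fold of 3.69 from 37 IP reads over an input of 5.00. In the knockout it was chr2:239929747-239929969, with 6.70 from 19 reads over 0.391. The pair overlapped by 174 bp. The log2 ratio of the knockout to the wild-type fold was 0.86, above the upper quartile of 0.51 over all 5947 shared wild-type peaks, whose median was 0.02. The higher knockout fold came with fewer IP reads and a lower local input. As the 2 folds differ in scale, the ratio is only placed among those of other shared peaks. It comes from 1 site and was not tested. The other wild-type peaks had folds of 11.9 (chr2:239893860-239894578, 1418 bp from the 3′ bound of the gene) and 7.25 (chr2:239931832-239932031). The other knockout peaks lay at the opposite end of the gene, 12986 and 4457 bp from its 5′ bound, with folds of 5.71 and 4.52. The first of them had 102 reads.

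Complex I held 27 of the 44 wild-type peaks and 18 of the 23 knockout peaks, in 17 and 10 of its 38 genes. Those are 44.7% and 26.3% of its genes, beside 39.6% and 34.9% of all protein-coding genes. Complex I also takes 855.355 of the 1610.75 kb of the 88 genes. The highest fold of the whole group was in NDUFB2, a small accessory subunit of the membrane arm. Its wild-type peak at chr7:140698379-140698738, 1671 bp from the start of the gene, had a fold of 19.4 from 65 IP reads, above 99.4% of the wild-type list. No knockout peak lay on that strand of NDUFB2. The 1 knockout peak within its bounds, chr7:140705434-140705633 with a fold of 6.41 from 15 reads, was on the opposite strand.

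NDUFS4, an accessory subunit whose loss causes Leigh syndrome, spans 122700 bp and had the most peaks. Its 4 wild-type peaks had folds of 8.15, 8.38, 11.6 and 8.69 in order along the gene, from 15, 21, 25 and 27 IP reads. Its 3 knockout peaks had folds of 6.71, 7.22 and 8.92 from 15, 19 and 21 reads. All 7 lay on the strand of the gene, between 31.2% and 75.8% of its length, and none overlapped a peak of the other list. The closest pair was 1581 bp apart. The 2 lists therefore met in the same stretch of NDUFS4 without meeting at a site.

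NDUFA9, an accessory subunit near the junction of the complex I arms, had 1 wild-type and 3 knockout peaks. The wild-type peak had a fold of 6.30 from 16 reads and lay 1332 bp from the nearest knockout peak. The knockout folds were 7.69, 6.96 and 5.29 from 30, 22 and 31 reads. NDUFV2, which carries an iron-sulfur cluster of the NADH-oxidising module, held the highest knockout fold of the group, 10.8 from 43 reads at chr18:9129392-9129771. Its 2 wild-type peaks had folds of 3.96 and 6.18, the second 1908 bp from that knockout peak. That pair lay within the bounds of the antisense gene NDUFV2-AS1 but on the strand of NDUFV2. NDUFAB1, the mitochondrial acyl carrier protein, had 1 peak in each list with folds of 7.81 and 8.10, at 8072 bp from each other. Here both lists marked the gene, at different sites.

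The knockout list alone marked 2 complex I genes, both for accessory subunits. NDUFA12 held 2 peaks with folds of 7.19 and 5.26 from 23 and 53 reads. NDUFB7 held 1 with a fold of 7.29 from 49 reads. The wild-type list alone marked 9, namely NDUFB3, NDUFB4, NDUFB5, NDUFB8, NDUFB9, NDUFC1, NDUFS1, NDUFS5 and NDUFS7. NDUFB5 had 3 wild-type peaks, with folds of 11.3, 5.73 and 7.09 from 26, 11 and 14 reads. NDUFS1, the large iron-sulfur subunit that accepts electrons from the flavin site, had 2 peaks with folds of 7.97 and 8.90, both in the first 15% of the gene. The single peaks of NDUFC1 (10.4), NDUFS5 (8.57) and NDUFB8 (7.77) had 19, 69 and 39 reads. NDUFB9 had the lowest fold of the wild-type group, 3.19, although its 72 reads were the most of the 44 wild-type peaks. Its local input was 13.0. The peak of NDUFS7, the core subunit that passes electrons to ubiquinone, had a fold of 6.82 and lay on the strand opposite to the gene, 333 bp from its end.

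Few peaks reached a gene start, and for these the promoter table gives the sequence. Within 500 bp of the 5′ bound lay 2 of the 32 wild-type peaks in genes whose strand is listed (6.25%), those of NDUFB3 and NDUFB4. None of the 20 knockout peaks did. Over all protein-coding genes of listed strand the shares were 2.47% and 2.08%. Both peaks crossed the start on the gene's strand. In NDUFB3 the peak, chr2:201071946-201072145, had a fold of 10.4 from 19 reads and a local input of 0.200. In NDUFB4 the peak, chr3:120596286-120596485, had 5.82 from 16 reads over 0.840. A second NDUFB4 peak, 2039 bp into the gene, had 7.52 from 38 reads. In ATP5MC2, which encodes the c subunit of the ATP synthase rotor, the peak chr12:53676451-53676650 had a fold of 7.87 from 20 reads. It lay inside the gene's bounds but 121 bp upstream of 1 of 3 listed starts, at 53676330. Another peak, chr7:99438828-99439027 on the plus strand, fell within the bounds of ATP5MF-PTCD1 and across the start of CPSF4, a neighbouring plus-strand gene for a polyadenylation factor. Its fold was 6.81 from 32 reads.

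The windows of 250 bases before to 50 after these starts follow, from RefSeq on GRCh38.p14, written 5′ to 3′ on the strand of the gene. Capitals mark the bases that lie under the wild-type peak. They follow the bounds of the called peak and do not give read coverage base by base. The windows are chr2:201071751-201072050 (plus), chr3:120596086-120596385 (plus), chr12:53676281-53676580 (minus) and chr7:99438693-99438992 (plus).
NDUFB3: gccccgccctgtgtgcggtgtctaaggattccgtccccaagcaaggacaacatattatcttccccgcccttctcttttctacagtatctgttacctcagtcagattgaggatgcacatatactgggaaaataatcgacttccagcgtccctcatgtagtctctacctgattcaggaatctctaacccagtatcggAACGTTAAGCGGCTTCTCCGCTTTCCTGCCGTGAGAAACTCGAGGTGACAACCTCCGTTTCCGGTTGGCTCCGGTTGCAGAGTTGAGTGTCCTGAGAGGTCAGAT
NDUFB4: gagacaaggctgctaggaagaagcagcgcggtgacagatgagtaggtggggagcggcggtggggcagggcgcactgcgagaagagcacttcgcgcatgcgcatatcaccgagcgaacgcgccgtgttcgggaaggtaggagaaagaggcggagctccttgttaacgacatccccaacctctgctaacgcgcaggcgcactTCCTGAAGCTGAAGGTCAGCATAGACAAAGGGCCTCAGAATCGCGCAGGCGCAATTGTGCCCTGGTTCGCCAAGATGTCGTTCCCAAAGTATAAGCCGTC
ATP5MC2: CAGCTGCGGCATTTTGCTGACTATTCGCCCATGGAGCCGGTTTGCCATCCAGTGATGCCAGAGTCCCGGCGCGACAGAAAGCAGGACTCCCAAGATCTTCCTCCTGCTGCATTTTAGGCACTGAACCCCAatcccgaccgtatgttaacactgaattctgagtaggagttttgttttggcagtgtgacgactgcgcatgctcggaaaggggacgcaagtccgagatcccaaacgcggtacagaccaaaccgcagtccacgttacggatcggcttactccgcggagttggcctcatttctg
CPSF4: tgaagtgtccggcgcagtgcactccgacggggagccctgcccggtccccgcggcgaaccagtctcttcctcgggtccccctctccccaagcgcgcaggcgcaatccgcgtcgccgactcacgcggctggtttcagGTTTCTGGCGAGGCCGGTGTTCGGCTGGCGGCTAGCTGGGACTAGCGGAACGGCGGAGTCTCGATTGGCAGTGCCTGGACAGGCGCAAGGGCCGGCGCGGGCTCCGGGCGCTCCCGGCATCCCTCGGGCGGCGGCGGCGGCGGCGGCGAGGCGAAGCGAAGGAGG

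The capitals cover 105 bases in NDUFB3, 55 of them upstream of the start, and 100 in NDUFB4, 50 of them upstream. They cover 130 in ATP5MC2, all upstream of that start, and 165 in CPSF4. The remaining 95, 100, 70 and 35 bp of the peaks lie beyond the windows. GC content under the peak was 55.2%, 54.0% and 56.9% in the oxidative phosphorylation genes and 75.2% at CPSF4. The letters GGACT and GGACA, common forms of the METTL3 motif, were searched on both strands. On the strand of the gene, ATP5MC2 held 1 GGACT under the peak, CPSF4 1 of each, and NDUFB3 and NDUFB4 0 of either. GGACT was present on either strand in 44.2% of all 35116 promoter windows and GGACA in 43.8%. The 84 windows of the genes described here held them in 47.6% and 52.4%. GGACT was in 42.9% of windows of genes with a peak and 51.0% of those of genes without, and GGACA in 40% and 61.2%. A peak anywhere in the gene counted here, and few peaks reached a window. These shares therefore cannot show whether the letters go with peaks. The NRF1 motif, in a form that is not the same on both strands, was searched on both strands as well. It was in 17 of the 84 windows (20.2%) and in 5.78% of all windows. NRF1 is a transcription factor known to bind respiratory gene promoters. The share was 20% in windows of genes with a peak in either list and 20.4% in those of genes without. NDUFB4 held 1 such match under its peak. These are matches of letters and were not tested as sites.

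Complex II, the succinate dehydrogenase, was the only complex with a peak of either list in each of its 4 genes. Wild-type peaks lay in 3 of them (75%) and knockout peaks in 2 (50%), beside 39.6% and 34.9% of all protein-coding genes. The median length of the 4 was 42068.5 bp, against 9589 bp for the 88 genes. All protein-coding genes of 30 to under 100 kb gave 55.5% and 48.9%. SDHC, a membrane anchor, had a wild-type peak at chr1:161362459-161363015 on the minus strand with a fold of 16.8 from 32 reads, second in the group to NDUFB2. SDHC is known to be transcribed from the plus strand, and its other peaks were on that strand. They had a fold of 6.17 from 14 reads in wild type and 8.81 from 31 reads in the knockout, 31011 bp apart. SDHB, the iron-sulfur subunit, and SDHD, the other membrane anchor, had 1 wild-type peak each with folds of 10.4 and 9.08 from 24 and 22 reads. SDHA, the flavoprotein that oxidises succinate, had 1 knockout peak with a fold of 5.82 from 20 reads. Without the minus-strand peak, the wild-type peaks of complex II thus ranged from 6.17 to 10.4.

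Complex III had 4 wild-type peaks in 3 of 9 genes (33.3%) and 1 knockout peak (11.1% of genes). All protein-coding genes gave 39.6% and 34.9%, and those under 10 kb 11.5% and 8.66%. The median length in complex III was 8294 bp. UQCRC2, a core protein of the complex, held a wild-type peak with a fold of 4.98 from 22 reads and a knockout peak with 5.10 from 36 reads, 3457 bp apart. UQCRH, the hinge protein that helps cytochrome c dock, held 2 wild-type peaks with folds of 5.67 and 6.36, the second 153 bp from the 3′ bound. UQCRHL, a near-identical intronless copy of 276 bp, held the highest fold of the complex, 9.70 from 22 reads. Reads of UQCRH and UQCRHL may be split between the copies, so the peaks of both are uncertain. Without UQCRHL, UQCRH carried the top fold of the complex.

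Complex IV, cytochrome c oxidase, had 1 peak in each list over 17 genes and 305.639 kb, of which COX7B2 alone takes 174419 bp. The wild-type peak was in COX6B2, the testis form of subunit 6B, with a fold of 8.65 from 22 reads on the strand opposite to the gene. The knockout peak was in COX7A2L, a factor of respiratory supercomplexes, with 6.85 from 19 reads on the gene's strand. Complex IV had 0.327 wild-type peaks per 100 kb of gene, where complex I had 3.16, complex II 2.79, complex III 4.53 and complex V 3.67. All protein-coding genes had 1.81. A wild-type peak was in 5.88% of complex IV genes, whose median length was 7095 bp, and so was a knockout peak. Of all protein-coding genes under 10 kb, 11.5% had a wild-type peak and 8.66% a knockout peak. Its 15 genes without a peak were COX4I1, COX4I2, COX5A, COX5B, COX6A1, COX6A2, COX6B1, COX6C, COX7A1, COX7A2, COX7B, COX7B2, COX7C, COX8A and COX8C. No complex IV gene thus had a wild-type peak on its own strand, which is a statement about 17 genes and not a test.

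Complex V, the ATP synthase, had 8 wild-type peaks in 6 of 20 genes and 1 knockout peak. Of the peripheral stalk genes, 3 had a wild-type peak and no knockout peak, and ATP5PF had 0 peaks in either list. The 3 were ATP5PO (3.31 from 33 reads), ATP5PD (6.86 from 12) and ATP5PB (6.43 from 17), the last 856 bp from its 3′ bound. ATP5MJ, a small membrane subunit, had a fold of 8.29 from 31 reads at 860 bp from its start. ATP5MF-PTCD1 is a readthrough gene that joins ATP5MF, a membrane subunit of the synthase, to PTCD1, a mitochondrial RNA-processing protein. Its bounds held wild-type peaks of 7.28, 9.82 and 6.81 (39, 35 and 32 reads) and a knockout peak of 9.54 from 21 reads. No peak lay in the bounds of ATP5MF itself. The first pair, on the minus strand, fell in PTCD1, and the plus-strand peaks fell in CPSF4 (wild type) and PTCD1 (knockout). The catalytic subunit genes ATP5F1A and ATP5F1B had 0 peaks, as had ATP5F1C, ATP5F1D and ATP5F1E. The other genes of the complex without a peak were ATP5IF1, which encodes its inhibitor, ATP5MC1, ATP5MC3, ATP5ME, ATP5MF, ATP5MG, ATP5MGL, ATP5MK and ATP5PF.

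The readthrough gene NDUFC2-KCTD14 was alike in that NDUFC2 itself had 0 peaks. Its 1 wild-type peak had a fold of 5.08 from 16 reads, and its 2 knockout peaks both had 8.60 from 20 reads. The nearer knockout peak began 378 bp from the wild-type one. The other complex I genes without a peak were NDUFA1, NDUFA2, NDUFA3, NDUFA5, NDUFA6, NDUFA7, NDUFA8, NDUFA11, NDUFA13, NDUFB1, NDUFB6, NDUFB10, NDUFB11, NDUFS3, NDUFS6, NDUFS8, NDUFV1 and NDUFV3. In complex III they were UQCR10, UQCR11, UQCRB, UQCRC1, UQCRFS1 and UQCRQ.

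**Figure D3:**
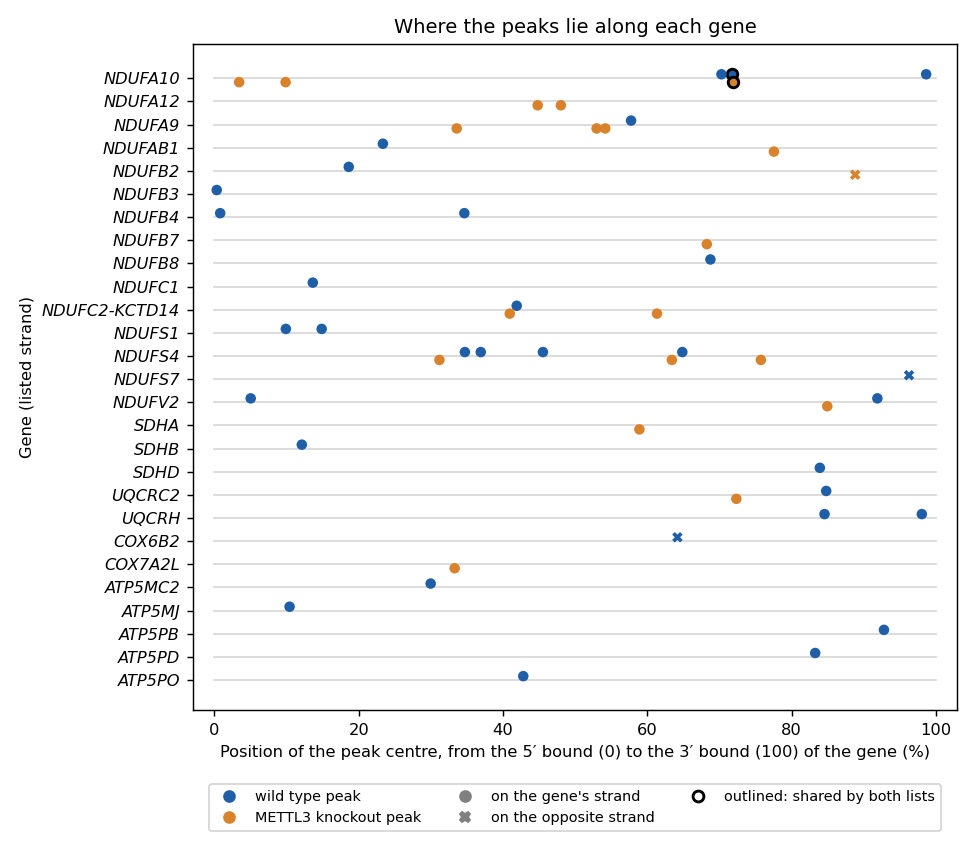
Position of each peak centre along its gene, from the 5′ bound (0%) to the 3′ bound (100%), in the genes of listed strand, with wild-type peaks in blue and knockout peaks in orange. Peaks spread over the whole length, NDUFB3 and NDUFB4 sit at the 5′ end, and the outlined pair in NDUFA10 is the one site of these genes where both lists met.

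Peaks lay mostly on the strand of the gene, as in other genes. The strand is listed for 71 of the 88 genes. In these, 30 of 32 wild-type peaks (93.8%, 79.2 to 99.2) and 19 of 20 knockout peaks (95%, 75.1 to 99.9) were on the gene's strand. All protein-coding genes gave 92.0% and 91.4%. The exceptions were in NDUFS7 and COX6B2 in wild type and NDUFB2 in the knockout. Along the gene, 11, 9 and 12 wild-type peaks fell in the 5′, middle and 3′ part of equal lengths, and 4, 9 and 7 knockout peaks. The wild-type shares were 34.4%, 28.1% and 37.5%, beside 32.6%, 31.3% and 36.1% over all protein-coding genes of listed strand. The knockout shares were 20%, 45% and 35%, beside 32.0%, 31.6% and 36.4%, on 20 peaks. No other RefSeq gene overlapped 38 of the 44 wild-type and 19 of the 23 knockout peaks. UQCRC2, NDUFV2, ATP5PD and both readthrough genes held the others.

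Gene length ordered which genes had peaks. Genes with peaks in both lists had a median length of 45204 bp, those in wild type alone 11678 bp, those in the knockout alone 32882 bp and those without a peak 7234.5 bp. Across the 88 genes, Spearman's rho of length with peak number was 0.43 for wild-type and 0.51 for knockout peaks, where a longer gene offers more room and all peaks share 1 pair of pooled lists. Among genes under 10 kb, 9 of 45 (20%) had a wild-type peak, against 11.5% of all protein-coding genes of that length, and 2 (4.44%) a knockout peak, against 8.66%. From 10 to under 30 kb it was 11 of 28 (39.3%, against 32.4%) and 2 of 28 (7.14%, against 26.2%). From 30 to under 100 kb it was 8 of 12 (66.7%, against 55.5%) and 9 of 12 (75%, against 48.9%). At 100 kb or more it was 2 of 3 in both lists (66.7%, against 73.2% in wild type and 70.5% in the knockout).

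**Figure D4:**
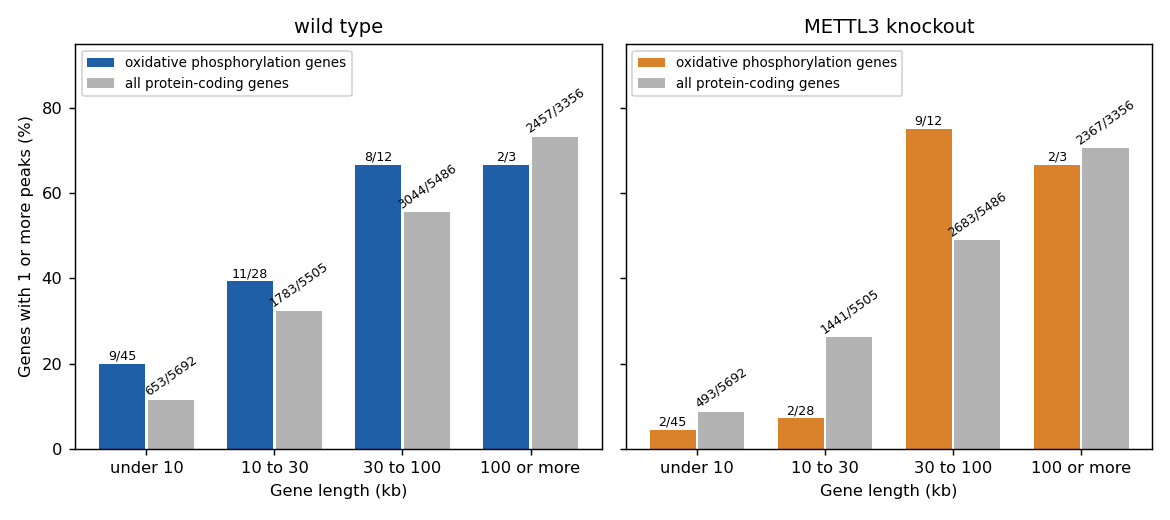
Share of genes with at least 1 peak by gene length, for oxidative phosphorylation genes (coloured) and all protein-coding genes (grey), in wild type (left) and METTL3 knockout (right), with counts above the bars. Below 30 kb the coloured bars stand above the grey ones in wild type and below them in the knockout.

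The scarcity of knockout peaks was thus found in the short genes. Under 30 kb, a limit set after the counts were seen, 73 genes held 24 wild-type and 4 knockout peaks, or 16.7 knockout peaks per 100 in wild type. All protein-coding genes under 30 kb held 77.0 per 100. In the 15 longer genes the counts were 20 and 19, or 95 per 100, against 81.3. Of the short genes with a wild-type peak, 17 of 20 (85.0%) had no knockout peak, against 54.2% of short protein-coding genes. The 4 knockout peaks of short genes included those of NDUFB7, NDUFAB1 and, on the opposite strand, NDUFB2. Of the longer genes with a wild-type peak 2 of 10 lacked one (20%, against 23.3%), SDHB and NDUFS1. With more wild-type peaks per gene the share without a knockout peak also fell, as it did over all protein-coding genes. Unlike in the split by length, it lay above theirs in each class. Of genes with 1 wild-type peak, 15 of 21 had no knockout peak (71.4%, against 52.4%), with 2 peaks 3 of 5 (60%, against 32.1%) and with 3 or more 1 of 4 (25%, against 9.16%). Whether the difference between short and longer genes exceeds replicate spread was not tested, as the lists hold no replicates.

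No single gene stood apart by its number of peaks. A Fisher's exact test of each gene's wild-type and knockout peaks against all other gene peaks, with Benjamini-Hochberg adjustment over 12198 genes, compares the 2 lists and not the genotypes. It called 0 of the 34 genes with a peak, and 0 had an unadjusted p under 0.05. In all, 0.0328% of genes were called, 0.0164% with more wild-type peaks, and 1.25% had an unadjusted p under 0.05. The lowest unadjusted exact p of these genes was 0.199, in NDUFA12 with 0 wild-type and 2 knockout peaks. NDUFB5, with 3 and 0, followed at an exact p of 0.259. Both had an adjusted exact p of 1. With so few peaks per gene, a difference of this size was not detectable for a single gene.

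Other genes of the pathway came from 4 lists. Of the 52 assembly factor genes, whose products build the complexes, 22 had a wild-type peak and 22 a knockout peak, with 14 in both, 8 in wild type alone and 8 in the knockout alone. Both shares were 42.3%, beside 39.6% and 34.9% of all protein-coding genes, and 36.4% of the 22 wild-type genes were without one in the knockout, beside 32.8%, so the wild-type shares were near the background. Of the 22 knockout genes, 8 had no wild-type peak, also 36.4%, beside 23.6% of all protein-coding genes, which were not matched for length. The assembly factor genes held 68 and 56 peaks. Of the 68 wild-type peaks 13 were shared, where 78.7% of wild-type peaks in all protein-coding genes had no partner. COA1, for a factor of complex IV and I assembly, led with 14 and 5 peaks and 4 shared. NUBPL, which delivers iron-sulfur clusters to complex I, had 8 and 10 with 4 shared. Both lists also marked ATPAF1, COX10, COX15, COX20, LRPPRC, NDUFAF2, NDUFAF5, NDUFAF6, NDUFAF7, SCO1, TIMMDC1 and TTC19. Wild type alone marked COA5, COA6, COX19, LYRM7, SDHAF3, SDHAF4, UQCC1 and UQCC2, and the knockout alone ACAD9, BCS1L, COX16, NDUFAF1, NDUFAF4, PET117, SDHAF1 and TMEM126A. The contrast with the subunit genes was not tested.

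Electron carrier and ubiquinone synthesis genes had a wild-type peak in 12 of 17 (70.6%, beside 39.6% of all protein-coding genes) and a knockout peak in 4 (23.5%, beside 34.9%). That background was not matched for length. The 12 genes with a wild-type peak ran from 11234 bp (COQ4) to 307003 bp (PDSS2). Of the 12, 8 had no knockout peak (66.7%, beside 32.8%). Those 8 were COQ8A with 3 peaks, GPD2 with 2, and COQ2, COQ3, COQ5, COQ9, ETFB and ETFDH with 1 each. PDSS2, for a subunit of the enzyme that makes the ubiquinone tail, had 10 and 8 peaks, and COQ4, ETFA and PDSS1 were the others in both lists. CYC1 and CYCS, for cytochromes that pass electrons on to complex IV, had 0 peaks. Of 15 regulators of respiratory genes, 8 had a wild-type peak (53.3%, beside 39.6%) and 9 a knockout peak (60%, beside 34.9%). Of all protein-coding genes of 30 kb or more, the class of each regulator with a peak except TFB2M, 62.2% and 57.1% had one. Regulators without a peak were not classed by length, so the 15 are not matched to that class. NRF1 had 5 and 3 with 0 shared, and PPARGC1B, a transcriptional coactivator, 5 and 3 with 2 shared. CREB1, GABPB1, PPRC1, TFB1M and YY1 were also in both lists, GABPA in wild type alone, and SP1 and TFB2M in the knockout alone.

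The mitochondrially encoded subunits are the other source of subunits. Of the 13 genes, 5 had a wild-type peak (38.5%) and 2 a knockout peak (15.4%), on 4 and 2 peaks. Nuclear protein-coding genes gave 39.6% and 34.9%. ND5 and ND6, of complex I, held the 2 shared peaks, with folds up to 3.14 in wild type and 2.76 in the knockout. ND4 and ND4L shared 1 wild-type peak of 1.79, and CYTB of complex III had 2.51. The wild-type folds lay below the lowest wild-type fold of the nuclear genes, 3.19 in NDUFB9. No mitochondrial peak lay in the genes for complex IV or the ATP synthase.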

How the data were processed

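MACS2 2.2.7.1, SAMtools 1.15.1 and HISAT2 2.2.1, with build hg38, are listed per the submitters' processing notes, without order or settings. How replicates were combined before calling: not given in the sources used here. The deposited fold column is a linear ratio, scaled IP divided by local input, the deposited −log10 columns hold p- and q-values, and the deposited score column, a display value, was not used. Peak starts were made 1-based. Peaks were assigned to the RefSeq GRCh38.p14 bounds they overlapped by 1 bp or more. Strands came from the RefSeq promoter table, and exons were not used here.

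IP reads and local input at each summit were recovered from fold and p-value, with fold = (scaled IP + 1) / (input + 1) and a Poisson tail. Matches within 0.002 of the deposited −log10 p were found for all 44 and 23 peaks described. The read recovery and the gene test were tested on simulated data. Python 3.11.15, numpy 2.4.6, pandas 2.3.3, SciPy 1.17.1 and matplotlib 3.10.9 were used.

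The genes and lists were chosen with earlier results of these data known. Results of a gene counted in the totals are not reported here. By rule, the other genes with a peak are named, with full values for shared peaks, the highest fold of each complex, genes with 3 or more peaks in a list and peaks within 500 bp of a start; values of other genes were added for the description.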

Additional observations from a re-analysis of the deposited data

How the results depend on the processing

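Each of 10 results was computed again under other choices, 54 alternatives in all. Of these, 53 kept a share within its interval, a count within 1.5 times or 0 calls. The exception was the share of wild-type peaks without a knockout partner, which was 100% with both lists held to their top 10% by −log10 q, a setting added after seeing the data that leaves 3 wild-type peaks of these genes. No knockout peak of these genes was left there, so the knockout share has no value in that setting. The limits are wide and the settings reuse the same peaks, so most results were likely to stay within them. A fall from 30 to 21 genes with a wild-type peak, on the gene's strand, counted as kept. Genes with a wild-type peak and no knockout peak numbered 18 of 27 (66.7%) at −log10 q of 5 or more, 14 of 21 on the gene's strand, 18 of 25 (72.0%) with equal numbers of strongest peaks and 20 of 30 when knockout peaks on the other strand than the wild-type ones were not counted, also added after seeing the data. All protein-coding genes, not matched for length, gave 34.7%, 32.6%, 30.4% and 34.9%. In the other direction the result moved with list size. With equal numbers of strongest peaks, 8 of 15 genes with a knockout peak had no wild-type peak, against 4 of 15 as reported. At −log10 q of 5 or more there were 5 such genes, and on the gene's strand 4. The share of all protein-coding genes in that direction was not computed for these settings. No paired analysis was possible because each list holds 1 value per peak for the genotype and none per replicate, and leaving out replicates was not run for the same reason. At a median of 23 IP reads per summit, most sites here lie where peaks of either list seldom have a partner, so a lack of a partner does not show a loss of the mark.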
